A study of Mus musculus with 5 samples.

Results

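The Hedgehog reception pathway was examined through 10 genes, namely the ligand gene Shh, the receptor genes Ptch1 and Smo, the coreceptor genes Gas1, Boc and Cdon, the ligand-binding inhibitor gene Hhip, and the transcription factor genes Gli1, Gli2 and Gli3. Every probe set of the array that was annotated with exactly 1 gene, and with a symbol among these 10, was taken. This gave 18 probe sets for 10 genes, out of 20380 probe sets for 12393 genes. No probe set that named a member also named another gene.

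The tissue was taken from wild-type embryos at stage E10.5, contained the pharyngeal arches and was also labelled as second heart field tissue. There were 5 samples in 1 group, each a separate tissue isolate from mice of the 129P2/OlaHsd strain after 2 generations of crossing back to C57BL/6. From each, 10 ng of total RNA was amplified and hybridised to an Affymetrix Mouse Genome 430A array. Shared litters are not mentioned in the labels, so the spread between samples may be partly technical, and there was no second condition to compare with.

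Hedgehog ligands are secreted proteins. In the absence of ligand the membrane protein Ptch1 holds the transducer Smo inactive, and the Gli proteins, Gli3 above all, are processed into repressors. Ligand bound to Ptch1, helped by the coreceptors Gas1, Boc and Cdon, releases Smo, which acts in the primary cilium to turn Gli2 into an activator. Gli1, Ptch1 and Hhip are themselves transcribed in response. In the mouse arches Shh comes mainly from the pharyngeal endoderm and other epithelia, and the mesenchyme and the second heart field respond to it.

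The signals were on a linear scale in which every array had the same mean, 150.1, once 2% of probe sets were trimmed at each end. Median signals ran from 28.1 to 32.2. The background level of an array was the 95th percentile of the signal over 178 probe sets of 149 genes of the families of olfactory, vomeronasal and taste receptors, keratin-associated proteins, caseins, defensins, protamines and transition proteins, alpha and beta interferons, major urinary proteins, and immunoglobulin and T cell receptor variable segments. It stood at 17.6, 16.2, 18.3, 22.5 and 23.0 in replicates 1 to 5. A probe set was called above background if its mean log2 signal exceeded the level with an adjusted p below 0.05 (limma, one-sided). The excess below is the mean log2 signal minus the level, with its SE and n = 5. A probe set that binds poorly also gives a low signal, so a missing call does not show that a transcript was absent, and levels of different probe sets are not ranked against each other.

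The samples differed by a median of 0.24 (replicates 1 and 2) to 0.38 (replicates 1 and 4) log2 units over the probe sets with a mean above the level. Replicate 4 was the only sample with high Xist, the silencing RNA of the inactive X (916, against 1.28 to 26.3 in the others), and with low signal of the Y-linked gene Eif2s3y (20.1, against 769 to 968). The 3′ to 5′ signal ratio of the Gapdh control probe sets ran from 2.78 in replicate 2 to 3.73 in replicate 1. The labelled tissue was checked against lists of tissue markers, with a gene called if any of its probe sets was. By this rule 54.1% of all genes on the array were called. Of 6 arch mesenchyme markers 4 were called, with Dlx5 and Alx4 not called. Of 6 second heart field markers 2 were called, Isl1 and Mef2c, with Tbx1, Fgf10, Nkx2-5 and Hand2 not called. All 5 endoderm markers, all 5 surface ectoderm markers, all 5 neuronal markers, 4 of 6 somite markers, 3 of 5 heart muscle markers and 2 of 6 neural tube markers were called as well. Among the endoderm markers, Sox17 was called at 1429177_x_at (mean 35.8) and not at 1421657_a_at (4.29). Foxa2 lost its call without replicate 1, 2 or 3, and it is also on the list of floor plate and notochord markers. Whether the other endoderm markers were called through endoderm or through another epithelium was not tested. Because the piece was measured whole, few cells with much of a transcript and many cells with little of it cannot be told apart, and the part of each tissue in the member signals was not tested.

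Of the 18 member probe sets, 9 were called, against 51.1% of all 20380 probe sets. They belonged to 5 of the 10 genes, Ptch1, Gas1, Boc, Smo and Gli2, against 54.1% of all genes. Cdon, Gli1, Gli3, Hhip and Shh had no call. The share of the members was thus near the background share. The median excess was 0.37 log2 units over the member probe sets and 0.59 over all probe sets. A gene with more probe sets has more chances of a call. None of the 4 members with a single probe set (Cdon, Gli1, Gli3 and Shh) was called, against 41.3% of such genes on the array. Of the 4 with 2 probe sets (Ptch1, Smo, Gli2 and Hhip) 3 were called, against 67.2%, and both members with 3 (Gas1 and Boc) were called, against 80%. Of the 18 probe sets 7 lay above the level in all 5 samples, against 49.3% of all probe sets. Another 5 lay above it in no sample, and the share of all probe sets that did so was not counted. With the 99th percentile of the background probe sets as the level, 7 probe sets of 4 genes were called, against 40.8% of all probe sets and 44.6% of all genes, and Smo was the gene that lost its call. With a level that also takes in the casein kinases and interferon receptors, which stood between 123 and 171, 4 probe sets of 3 genes (Ptch1, Gas1 and Boc) were called, against 19.7% of all probe sets and 23.2% of all genes.

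**Figure D1:**
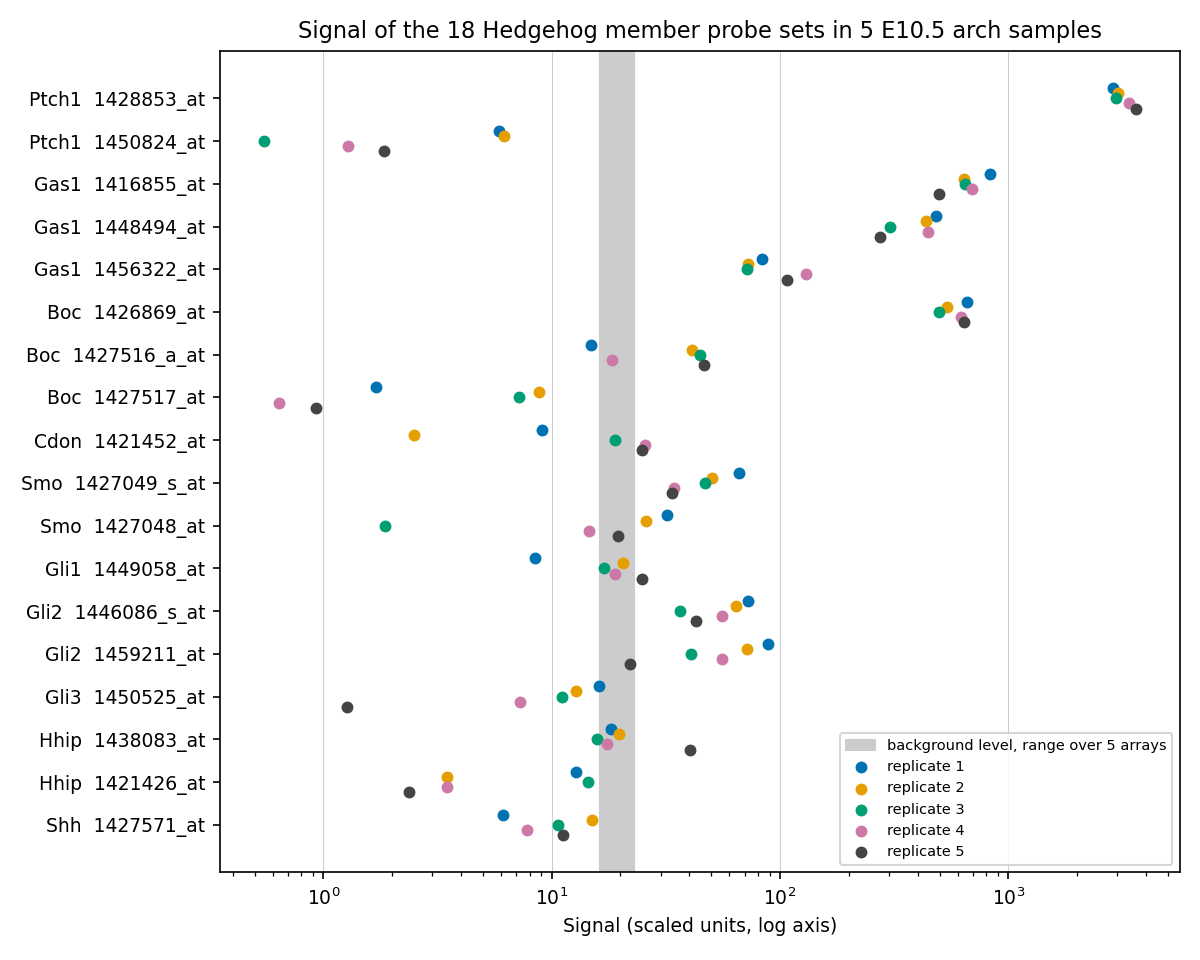
Signal of each of the 18 member probe sets (rows) in the 5 samples (coloured points) on a log axis, with the range of the background level over the arrays as a grey band. Ptch1 1428853_at lies between 2879 and 3625, far to the right of the band, while the second Ptch1 probe set and the single Shh and Gli3 probe sets lie left of it or at its edge.

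Shh encodes the ligand most used in the embryo. Its single probe set, 1427571_at, gave 6.09, 15.0, 10.7, 7.79 and 11.2 in replicates 1 to 5. All 5 values lay below the level of their own array, with an excess of -0.996 ± 0.458 (adjusted p = 1, limma). The other ligand genes gave no call either. Ihh, which encodes the ligand of growing cartilage, averaged 5.52 ± 3.76 (SD, n = 5), and Dhh, the ligand of Schwann and Sertoli cells, averaged 3.77 ± 1.45 at 1422127_at and 4.19 ± 2.90 at 1434959_at. The floor plate and notochord are strong sources of Shh. Of their 6 markers 3 were measured, and Foxa2, which endoderm also expresses, was the called one (28.9 ± 7.32). Nog and Chrd, which encode secreted BMP antagonists, were not called. The summed signal of these 3 markers ran from 27.9 to 47.4 over the samples, no value was at 0, and their part in the Shh signal was not tested.

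Ptch1 encodes the Hedgehog receptor and is at the same time a transcriptional target of the pathway. Its probe set 1428853_at gave 2879, 3027, 2952, 3383 and 3625 in replicates 1 to 5, with a mean of 3173 ± 318 (SD). The excess over background was 7.35 ± 0.12 log2 units, a 164-fold ratio to the level (adjusted p = 5.66e-27, limma), and the highest sample was 1.26 times the lowest. The second probe set, 1450824_at, gave 5.86, 6.20, 0.547, 1.28 and 1.85, below the level in every sample, with an excess of -2.99 ± 0.62 (adjusted p = 1, limma). The 2 probe sets differed by 10.34 log2 units. Of the 4956 genes with 2 or more probe sets, only 6 (0.121%), Ptch1 included, had a range between their probe sets at least as wide. The statement that Ptch1 was above background therefore rests on 1428853_at alone, and the cause of the gap was not tested.

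Smo encodes the membrane protein, a relative of the G protein-coupled receptors, that Ptch1 restrains and that passes the signal on. Its probe set 1427049_s_at gave 65.8, 50.5, 47.1, 34.3 and 33.6 in replicates 1 to 5. All lay above the level, with an excess of 1.21 ± 0.22 (adjusted p = 1.14e-05, limma). The suffix _s_at marks a probe set that can bind transcripts of related sequence. The other probe set, 1427048_at, which the annotation ties to the same sequence entry, gave 32.0, 25.8, 1.87, 14.6 and 19.5. It exceeded the level in replicates 1 and 2 and was not called, with an excess of -0.52 ± 0.48. With the 99th percentile of the background probe sets as the level, 1427049_s_at was no longer called (excess 0.34, adjusted p = 0.16, limma).

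Hhip encodes a membrane-anchored protein that binds and sequesters Hedgehog ligands, and like Ptch1 it is a target that feeds back on the pathway. Its probe set 1438083_at gave 18.2, 19.7, 15.9, 17.5 and 40.2 in replicates 1 to 5. The excess was 0.11 ± 0.27 (adjusted p = 0.609, limma). Replicate 5 stood well above the other 4 samples, and replicates 3 and 4 lay below their levels. The second probe set, 1421426_at, gave 12.8, 3.47, 14.4, 3.49 and 2.38, below the level in every sample (excess -1.80 ± 0.63).

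The promoters of Ptch1 and Hhip are shown because both genes are known to answer to the Gli factors, while 1 of them was called and the other was not. The sequences are from RefSeq on build GRCm38.p6, 5′ to 3′ on the strand of the gene, from 250 bases before to 50 after the start. They lie at chr13:63565686-63565985 on the minus strand for Ptch1 and at chr8:80057959-80058258 on the minus strand for Hhip. Capitals mark each GC box, GGGCGG or its reverse complement CCGCCC, a motif chosen after the values were seen.
Ptch1: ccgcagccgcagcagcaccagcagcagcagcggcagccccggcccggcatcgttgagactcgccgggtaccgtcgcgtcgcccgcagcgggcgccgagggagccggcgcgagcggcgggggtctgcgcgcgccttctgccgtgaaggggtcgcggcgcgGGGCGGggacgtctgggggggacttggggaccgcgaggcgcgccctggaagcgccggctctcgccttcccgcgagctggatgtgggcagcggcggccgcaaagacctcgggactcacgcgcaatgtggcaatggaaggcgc
Hhip: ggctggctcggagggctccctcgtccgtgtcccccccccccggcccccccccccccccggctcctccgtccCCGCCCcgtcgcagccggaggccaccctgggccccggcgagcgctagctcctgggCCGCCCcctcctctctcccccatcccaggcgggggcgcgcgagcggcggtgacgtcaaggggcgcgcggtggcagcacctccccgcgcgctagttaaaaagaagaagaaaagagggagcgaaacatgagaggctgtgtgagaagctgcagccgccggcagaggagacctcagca

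Such a promoter was held by RefSeq's table for 7 of the 10 members, namely Ptch1, Gas1, Cdon, Smo, Gli2, Gli3 and Hhip. The Gli consensus GACCACCCA was searched on both strands and was in none of the 7, nor was its core CCACCCA, which lies within it. Of all 32851 promoters 0.253% held the consensus and 9.30% held the core. The GC box was in 5 of the 7 windows, with 2 matches each in Hhip and Gli3, and in 35.7% of all promoters. The windows of Ptch1 and Hhip had a GC content of 76.3% and 73.7%. These matches describe the letters of the windows and say nothing of where a factor binds.

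The coreceptors hold Hedgehog ligand together with Ptch1 at the cell surface. Gas1, a lipid-anchored protein first named for growth arrest, was called at all 3 probe sets. The probe set 1416855_at gave 829, 641, 643, 691 and 496 in replicates 1 to 5, with an excess of 5.07 ± 0.16 (adjusted p = 8.83e-21, limma). The probe set 1448494_at gave 480.2, 437, 302, 443 and 274, with an excess of 4.29 ± 0.17 (adjusted p = 2.23e-18, limma). Both were highest in replicate 1 and lowest in replicate 5. The third, 1456322_at, gave 83.6, 72.4, 71.8, 129.6 and 107, with an excess of 2.23 ± 0.17 (adjusted p = 3.08e-12, limma). It was highest in replicate 4 and lowest in replicate 3, so the 3 probe sets of Gas1 did not order the samples alike.

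Boc, an immunoglobulin superfamily receptor, was called at 2 of its 3 probe sets. The probe set 1426869_at gave 657, 537, 495, 618 and 642 in replicates 1 to 5, with an excess of 4.92 ± 0.15 (adjusted p = 2.66e-21, limma), and its highest sample was 1.33 times its lowest. The probe set 1427516_a_at gave 14.9, 41.1, 44.6, 18.4 and 46.6. It lay above the level in replicates 2, 3 and 5 and below it in replicates 1 and 4, with an excess of 0.62 ± 0.26 (adjusted p = 0.0251, limma). That call did not hold when replicate 2, 3 or 5 was left out, with adjusted p of 0.141, 0.131 and 0.0935 (limma). It was also lost without the trend and robust options of limma (adjusted p = 0.0998) and with each of the 3 higher background levels tried, where the excess was negative. The third probe set, 1427517_at, gave 1.70, 8.82, 7.22, 0.636 and 0.932 and was not called (excess -2.92 ± 0.65). The range between the Boc probe sets, 7.84 log2 units, was matched or passed by 1.74% of the genes with 2 or more probe sets.

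Cdon, the close relative of Boc, had 1 probe set, 1421452_at. It gave 9.03, 2.49, 19.0, 25.7 and 24.7 in replicates 1 to 5. Replicates 3, 4 and 5 lay just above their levels and replicates 1 and 2 below, with an excess of -0.66 ± 0.44 (adjusted p = 1, limma). The Cdon probe set thus straddled the level.

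Gli2, in mouse the main activator among the Gli factors at the first step of the response, was called at both probe sets. The probe set 1446086_s_at gave 72.6, 64.2, 36.4, 55.7 and 42.8 in replicates 1 to 5, with an excess of 1.45 ± 0.21 (adjusted p = 3.53e-07, limma). Like that of Smo, its suffix _s_at marks a probe set that can bind transcripts of related sequence. The probe set 1459211_at gave 88.7, 71.9, 40.8, 55.9 and 21.9, with an excess of 1.38 ± 0.27 (adjusted p = 7.97e-05, limma). It lay just below the level in replicate 5 and above it in the other 4 samples. The annotation ties both probe sets to the same sequence entry, so they are not independent measurements. Replicates 1, 2 and 4 were above replicates 3 and 5 at both.

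Gli3, the main source of Gli repressor, had 1 probe set, 1450525_at, with 16.2, 12.7, 11.1, 7.25 and 1.26 in replicates 1 to 5. It stayed below the level in every sample (excess -1.40 ± 0.61, adjusted p = 1, limma). Gli1, the activator that is transcribed only when the pathway is on and is widely used as its readout, had 1 probe set, 1449058_at, with 8.46, 20.5, 17.0, 19.0 and 24.9. Replicates 2 and 5 lay above their levels and the other 3 below, with an excess of -0.19 ± 0.31 (adjusted p = 1, limma). Among the 3 members that are themselves pathway targets, Ptch1 was therefore called at 1 of 2 probe sets, and Gli1 and Hhip were not called.

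**Figure D2:**
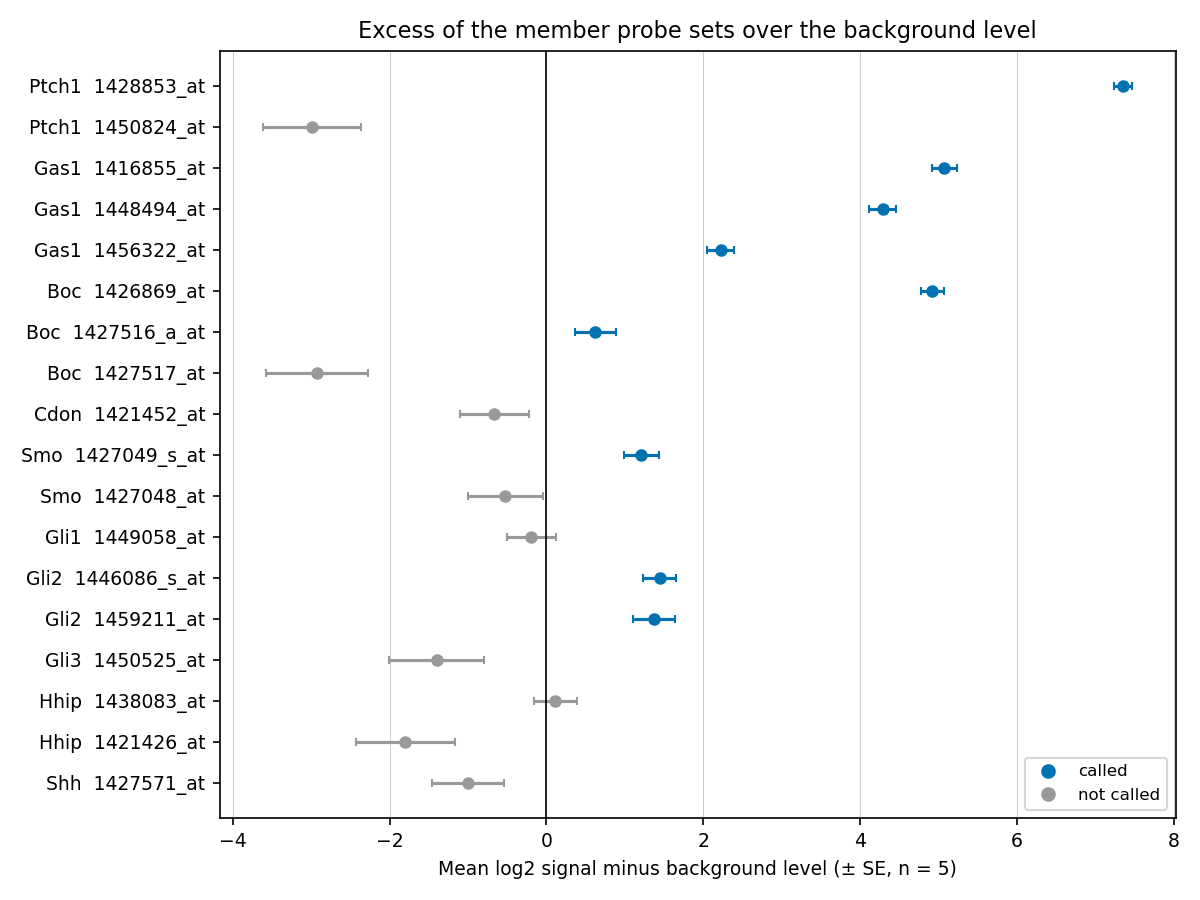
Mean log2 signal minus the background level (± SE, n = 5) of the 18 member probe sets, with 0 as the level, called probe sets in blue and others in grey. The points run from -2.99 to 7.35, both of them Ptch1, and Gas1 and Gli2 are the genes with all of their probe sets called.

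The variation between the samples was tested for probe sets with a mean above the level, which 10 of the 18 members met. The test set each variance over the 5 samples against that of probe sets of like signal. None of the 10 was called, against 0.111% of 11710 probe sets, and the lowest adjusted p was 0.853 (limma's variance trend, F test). At an unadjusted p below 0.05 there was 1, Gli2 1459211_at, with a variance 4.20 times the trend, against 5.25% of all. Its centred log2 signal ran from 0.82 in replicate 1 to -1.20 in replicate 5. The median SD was 0.39 log2 units over the 10 and 0.32 over all 11710.

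The called probe sets differed in which sample was highest. Of the 9 called probe sets, 6 were highest in replicate 1, 2 in replicate 5 and 1 in replicate 4. The lowest sample was replicate 5 for 4 of them, replicate 3 for 3 and replicate 1 for 2. Several of the 9 belong to the same gene. How often each replicate was highest or lowest over the whole array was not counted, so these counts are not read as a trait of the members. Ptch1 1428853_at was highest in replicate 5, at 0.20 log2 units above its mean, where Gas1 1416855_at and 1448494_at, Smo 1427049_s_at and Gli2 1459211_at were lowest, with -0.39, -0.46, -0.42 and -1.20. Replicate 1 showed the reverse, with -0.13 for that Ptch1 probe set and 0.35, 0.35, 0.56 and 0.82 for the other 4. The remaining called probe sets were split. Gli2 1446086_s_at went with those 4, with 0.46 in replicate 1 and -0.30 in replicate 5. Gas1 1456322_at (-0.11 and 0.25) and Boc 1427516_a_at (-1.001 and 0.65) went with Ptch1, and Boc 1426869_at was positive in both (0.16 and 0.13). Replicate 1 also had the highest 3′ to 5′ ratio of the Gapdh controls, and the part of RNA quality in these differences was not tested. None of these probe sets was called in the variance test. That test asks about the spread of a single probe set, so it does not address opposite directions between probe sets, which were not tested.

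**Figure D3:**
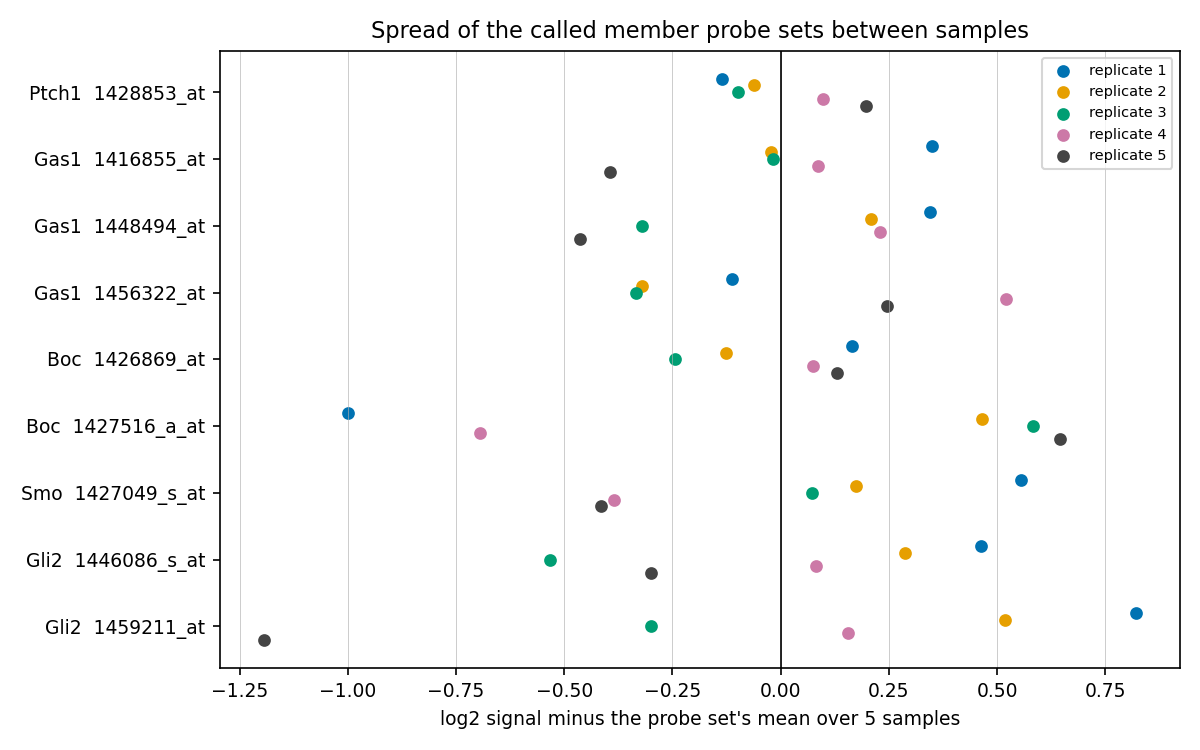
Log2 signal minus the mean over the 5 samples for the 9 called member probe sets (rows), each sample a coloured point. Ptch1 1428853_at stays within -0.13 and 0.20, while Boc 1427516_a_at spreads from -1.001 to 0.65 and Gli2 1459211_at from -1.20 to 0.82.

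Other genes of Hedgehog production and signal transfer were read from a list of 28, of which 19 were on the array by the same annotation. Of these 14 (73.7%) were called, against 54.1% of all genes, or 9 with the 99th percentile as the level, against 44.6%. Most of the 19 had 2 or 3 probe sets, and with the main level 67.2% and 80% of such genes on the array were called. A gene is given here by its brightest probe set, the one with the highest mean log2 signal. Among the regulators of Gli processing, Csnk1a1, a casein kinase that phosphorylates Gli proteins, averaged 2071 ± 433 (SD, n = 5). Spop (668 ± 84.5) and Cul3 (537 ± 72.1) encode an adaptor and the scaffold of a ubiquitin ligase that degrades Gli proteins. The catalytic subunits of protein kinase A, which starts that processing, averaged 495.5 ± 204 for Prkaca and 469.7 ± 89.4 for Prkacb. Sufu, which binds Gli proteins in the cytoplasm and restrains them, gave 76.5, 73.2, 35.4, 61.9 and 63.4 at 1450024_at, with an excess of 1.63 ± 0.20 (adjusted p = 2.55e-08, limma). Its second probe set, 1420848_at, was not called. Csnk1a1, Spop and Prkacb each had an uncalled probe set as well, with means of 12.1, 29.0 and 14.1.

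Further calls were Gsk3b, a kinase that acts after protein kinase A (128 ± 17.2), Gpc3, a glypican that binds Hedgehog ligand and lowers its action in mouse (298 ± 69.8), and Gpc6, another glypican (47.7 ± 8.54). Efcab7, a protein of the ciliary base that anchors the Evc complex, averaged 109 ± 17.6. The adenylyl cyclase gene Adcy6 (38.0 ± 19.8), the ubiquitin ligase gene Btrc (34.7 ± 10.3), the arrestin gene Arrb2 (33.7, with single samples between 21.1 and 42.0) and Scube2, which helps to release lipid-bearing ligand (28.5 ± 8.90), were called with excesses of 0.82, 0.78, 0.76 and 0.50. These 4, and Gpc6, were not called with the 99th percentile as the level. With the main level, Btrc and Gpc6 each had an uncalled probe set, with means of 6.71 and 19.5. Scube2 also lost its call without replicate 1, 2, 4 or 5, with adjusted p of 0.0605, 0.125, 0.127 and 0.0666 (limma). Not called, besides Ihh and Dhh, were Evc, a ciliary partner of Smo (23.8 ± 10.8), Lrp2, a large receptor that takes up Shh (18.7 ± 8.29), and Hhat, the acyltransferase that adds palmitate to the ligand (6.56 ± 6.37). The median excess of the 19 genes was 1.28. Choosing the brightest probe set raises it, so it is not set beside the medians over single probe sets.

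Genes known to be transcribed in response to Hedgehog signalling in some mouse embryonic tissue formed a list of 22. Of these 21 were measured, most of them by a single probe set. On the array 41.3% of genes with a single probe set were called, and 54.1% of all genes. Of the 21 response genes 8 (38.1%) were called. The D-type cyclin genes Ccnd2 (2433 ± 312) and Ccnd1 (904 ± 219.5) and the growth regulator Mycn (564 ± 176) were among them. So were the forkhead genes Foxc2 (358 ± 129), Foxd1 (88.1 ± 27.1) and Foxa2 (28.9 ± 7.32), the Ras-like gene Rasl11b (219 ± 27.4) and the sclerotome and pouch gene Pax1 (114 ± 55.9). Mycn was not called at its other probe sets, with means of 15.5 and 3.59. Foxa2 lost its call without replicate 1, 2 or 3, with adjusted p of 0.143, 0.0567 and 0.104 (limma), and without the trend and robust options (adjusted p = 0.0515). Many of these genes also answer to other signals. Pax1 gave 151, 192, 56.1, 84.3 and 85.7 in replicates 1 to 5, and Foxd1 gave 121, 110.0, 83.9, 69.1 and 56.6. Replicates 1 and 2 were the 2 highest samples for both. The same held for Foxc2, Mycn and Ccnd1 and did not hold for Foxa2, Ccnd2 and Rasl11b. How often it held over the whole array was not counted, so it is not read as a trait of these genes.

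The 13 genes of this list that were not called included the forkhead genes Foxf1 and Foxf2, known targets in gut and facial mesenchyme. The brightest of the 13 were Nkx2-2 (28.2 ± 8.66), Bcl2 (25.5 ± 8.53), Pax9 (23.4 ± 10.4), Nkx6-1 (19.7 ± 7.17) and Olig2 (13.8 ± 6.22). Nkx2-2, Nkx6-1 and Olig2 encode factors of the ventral neural tube that Shh induces there. Nkx2-2 lay above the level in 4 of 5 samples and missed the threshold (excess 0.48 ± 0.25, adjusted p = 0.0607, limma). It passed without replicate 1 (adjusted p = 0.0191, limma) and without replicate 4 (adjusted p = 0.0455). It also passed with signals floored at 16 (adjusted p = 0.0247, limma) and with dim probe sets left out of the fit (adjusted p = 0.0350), and had a negative excess with each of the 3 higher levels.

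**Figure D4:**
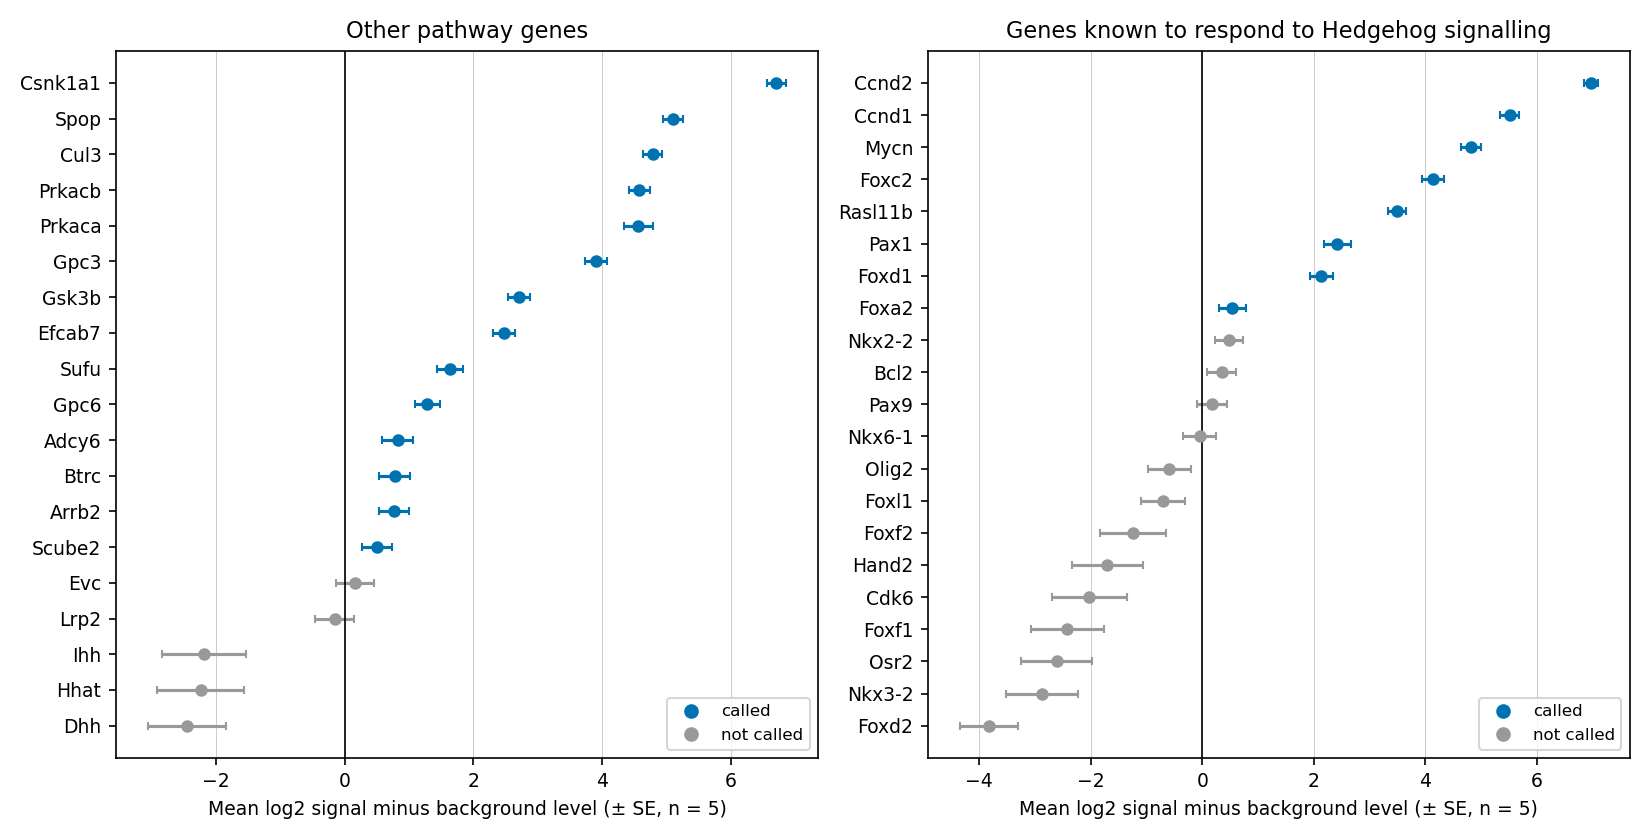
Mean log2 signal minus the background level (± SE, n = 5) at the brightest probe set of the 19 other pathway genes (left) and the 21 genes known to respond to Hedgehog signalling (right), with called genes in blue and others in grey. Csnk1a1 stands at 6.71 and Ccnd2 at 6.97, while the ligand genes Ihh and Dhh lie at -2.19 and -2.46.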

How the data were processed

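The deposited values were intensity values on a linear scale, 1 signal per probe set and array, which the authors made with GCOS, per the submitters' processing notes. Its version, algorithm and settings are not given in the sources used here, and no present or absent calls were used. Of 22690 probe sets, 64 controls, 691 with several genes and 1555 with no gene in the platform annotation were left out. Through Entrez identifiers, symbols were brought up to date with RefSeq (GRCm38.p6), matching 20351 of the 20380 that remained.

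Signals were floored at 1 and taken to log2. Detection was tested with limma (version 3.58.1, R 4.3.3; lmFit, then eBayes, both trend and robust) on the difference between log2 signal and background level, one-sided, with Benjamini-Hochberg adjustment over all 20380 probe sets. Variance over the samples was tested by an F test against limma's robust trend over 11710 probe sets with a mean above the level. The depth of an array is not defined, and the number of arrays limits the precision. The background families left out casein kinases and interferon receptors, which are widely expressed; a level that includes them is an alternative. The other alternatives changed the percentile, the floor, the normalization, the moderation, the filter on dim probe sets and the samples.

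All probe sets of the members are named. From the 2 other gene lists the text names every called gene and up to 5 others with the highest mean signal, and further genes, such as Foxf1 and Foxf2, were named after their values were seen. No genes of like pattern were sought over the array, with 5 samples of 1 group. Among the called member probe sets, the directions in replicates 1 and 5 were compared after the values were seen and were not tested. The members and lists were chosen with earlier results of these data known. On simulated data for 20380 probe sets, detection recovered 60%, 86%, 94% and 100% of probe sets seeded 0.5, 1, 2 and 4 log2 units above the level, with 0.141% of calls false. The simulated arrays shared a single known level and had independent noise, whereas the real levels were estimated for each array and ran from 16.2 to 23.0. The simulated share of false calls therefore does not give that of the real arrays. In 11710 simulated probe sets the variance test recovered 60% at 3 times and 94% at 6 times the usual SD, with 2 false calls.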

Additional observations from a re-analysis of the deposited data

Results flagged for a closer look

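Of 58 probe sets named for the members and the other gene lists, 5 (8.62%) had a sample whose gap to the nearest other sample passed Dixon's critical value for 5 samples, on the log2 scale. Chance gives this in about 5% of groups. Smo 1427048_at stood at 1.87 in replicate 3, against 14.6 to 32.0 in the others. Hhip 1438083_at stood at 40.2 in replicate 5, against 15.9 to 19.7. Among the other pathway genes, Sufu 1450024_at was low in replicate 3 (35.4, against 61.9 to 76.5), Csnk1a1 1424827_a_at was low in replicate 5 (1328, against 2105 to 2437) and Btrc 1425680_a_at was low in replicate 4 (17.5, against 34.5 to 43.1). The 2 member probe sets flagged here were not called above background.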

How the results depend on the processing

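The calls of Ptch1, Gas1 and Boc held under every alternative run for at least 1 probe set, and Gli2 lost its call with the wider name pattern alone and Smo with that pattern and with the 99th percentile. The wider name pattern put the level at 123 to 171 through casein kinases and interferon receptors. It called 4 member probe sets of 3 genes, 6 of the other pathway genes and 5 of the response genes. With the main level these counts were 9, 5, 14 and 8. Over the array the wider pattern called 19.7% of probe sets and 23.2% of genes, against 51.1% and 54.1% with the main level. Its casein kinases include Csnk1a1, so the call of that pathway gene was made against a level its own probe sets helped to set. With the 99th percentile 7 member probe sets of 4 genes and 9 of the other pathway genes were called, against 40.8% of all probe sets and 44.6% of all genes. Without the trend and robust options of limma, Boc 1427516_a_at (adjusted p = 0.0998) and Foxa2 (adjusted p = 0.0515) were no longer called, and Nkx2-2 gained a call with a floor at 16 (adjusted p = 0.0247) and with dim probe sets left out (adjusted p = 0.0350). Without each replicate in turn the calls covered 8 to 9 member probe sets, 5 genes, 13 to 14 other pathway genes and 7 to 9 response genes. In these runs 49.8% to 51.3% of all probe sets and 52.9% to 54.5% of all genes were called. In the variance test 0 member probe sets were called under every alternative (limma). Quantile normalization left all 4 counts as they were. No paired analysis was possible because there was 1 group.

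The excess turned negative with the wider pattern for Gas1 1456322_at (-0.71), Boc 1427516_a_at (-2.31), Smo 1427049_s_at (-1.72), Gli2 1446086_s_at (-1.49) and 1459211_at (-1.56), Hhip 1438083_at (-2.82), Scube2 (-2.44), Sufu (-1.30), Arrb2 (-2.17), Gsk3b (-0.23), Btrc (-2.16), Evc (-2.78), Efcab7 (-0.46), Gpc6 (-1.65), Adcy6 (-2.12), Foxa2 (-2.39), Foxd1 (-0.80), Nkx2-2 (-2.46), Pax1 (-0.52), Pax9 (-2.76) and Bcl2 (-2.59). With the 99th percentile it did so for Boc 1427516_a_at (-0.25), Hhip 1438083_at (-0.76), Scube2 (-0.37), Arrb2 (-0.11), Btrc (-0.093), Evc (-0.71), Adcy6 (-0.050), Foxa2 (-0.33), Nkx2-2 (-0.39), Pax9 (-0.70) and Bcl2 (-0.52). With the median of all probe sets as the level the values were -0.048 for Boc 1427516_a_at, -0.56 for Hhip 1438083_at, -0.17 for Scube2, -0.51 for Evc, -0.13 for Foxa2, -0.19 for Nkx2-2, -0.50 for Pax9 and -0.33 for Bcl2. In each case the higher level itself sets the sign. A floor at 16 turned 4 uncalled values positive, Cdon 1421452_at (0.040), Smo 1427048_at (0.12), Lrp2 (0.041) and Nkx6-1 (0.070), by raising their lowest signals. Leaving out each replicate moved 6 uncalled values across 0, with ranges from -0.87 to 0.17 for Smo 1427048_at, -0.32 to 0.024 for Gli1 1449058_at, -0.060 to 0.23 for Hhip 1438083_at, -0.077 to 0.50 for Evc, -0.28 to 0.058 for Nkx6-1 and -0.067 to 0.33 for Pax9.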
